A study of Mus musculus with 4 samples.

Results

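Leukotriene and prostaglandin synthesis was examined in 3T3-L1 adipocytes through 10 genes, Alox5, Alox5ap, Ltc4s, Lta4h, Ptgs1, Ptgs2, Ptges, Ptgds, Ptgis and Hpgd. They were found by the gene name that the scanner files give each probe, which returned 13 probes on 22 spots, out of 55676 probes for 35017 genes. 3T3-L1 is a clonal line of mouse embryo fibroblasts that becomes fat cells when induced in culture. Differentiated cells received pig testis extract (called PT, at 100 ug/ml), the soy isoflavone daidzein (25 uM), both agents together (daidzein+PT) or PBS as the control, each for 7 days. Each group was read on 1 single-colour Cy3 array, so no group has a replicate and no difference below carries a p-value. What the testis extract contains is not given in the sources used here.

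Arachidonic acid, released from membrane lipids by phospholipases, feeds both branches of this pathway. In the leukotriene branch, 5-lipoxygenase (Alox5) works with its activating protein FLAP (Alox5ap) to make leukotriene A4, which Lta4h hydrolyses to leukotriene B4 and Ltc4s joins to glutathione to make leukotriene C4. In the prostaglandin branch, the cyclooxygenases Ptgs1 and Ptgs2 make prostaglandin H2, which Ptges, Ptgds and Ptgis convert to prostaglandins E2 and D2 and to prostacyclin, and Hpgd oxidises prostaglandins to less active products. Fat cells and their precursors are known to make prostaglandins, several of which act on fat cell differentiation and lipolysis, whereas leukotriene synthesis is best known from leukocytes and mast cells.

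Signals were measured through designed 60-base probes, and those on which the results turn are printed here so that the measured stretch of each transcript can be seen. Capitals mark the polyadenylation hexamer AATAAA or ATTAAA where the strand of the probe holds it, and a probe in lower case throughout holds neither. Of 55597 distinct probe sequences on the array, 13.7% held one of these hexamers on their own strand and 6.12% on the opposite strand. Positions are those of the files on mouse build mm9, and where a probe falls within the exons was not analysed here. The position given for the Ltc4s probe spans 58 bases, although its sequence has 60.
Ltc4s, chr11:50049974-50050031, minus strand: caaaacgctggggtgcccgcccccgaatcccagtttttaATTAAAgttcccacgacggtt
Alox5ap, chr5:150099347-150099406, plus strand: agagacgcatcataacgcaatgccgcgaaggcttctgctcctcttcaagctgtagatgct
Ptgds, chr2:25322232-25322291, minus strand: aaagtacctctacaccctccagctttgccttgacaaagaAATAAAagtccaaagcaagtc
Ptgis, chr2:167028696-167028755, minus strand: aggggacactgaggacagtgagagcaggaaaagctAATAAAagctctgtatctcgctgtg
Ptgis, second probe, chr2:167017317-167017376, minus strand: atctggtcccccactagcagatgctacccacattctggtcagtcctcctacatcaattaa
Ptges, chr2:30744995-30745054, minus strand: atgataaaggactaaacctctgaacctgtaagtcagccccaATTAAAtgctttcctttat
Ptges, second probe, chr2:30748214-30748273, minus strand: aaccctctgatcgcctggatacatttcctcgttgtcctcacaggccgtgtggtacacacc
Ptgs2, chr1:151954744-151954803, plus strand: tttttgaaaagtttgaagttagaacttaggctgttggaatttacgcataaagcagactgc

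Levels below are relative levels, that is, the background-subtracted signal of the probe divided by the 75th percentile of its array, and differences are on the log2 scale. Between 49.7% and 51.4% of the 59305 non-control spots of an array were well above background, and no such spot was saturated. The only gauge of spread between arrays was the interaction, the PT difference with daidzein minus that without it. Scaled to a difference of 2 arrays, its SD over genes was 0.33 for dim genes, 0.14 for genes of middle signal and 0.11 for bright genes (6116, 6116 and 6117 of the 18349 genes read on all 4 arrays), and any true dependence of 1 agent on the other is part of it. PBS and daidzein lay in row 1 of the slide and both PT arrays in row 2, so PT and slide row cannot be told apart. All 8 adipocyte markers (Adipoq, Fabp4, Plin1, Cidec, Lipe, Cfd, Slc2a4 and Pparg) were well above background on every array, and their summed relative level was 189 with PT, 512 with daidzein, 838 with daidzein+PT and 89.5 with PBS. For 8 preadipocyte and fibroblast markers the sum was 1196, 1020, 1067 and 1219 in the same order of arrays, most of it from Dlk1 and Col3a1. Log2 differences of these 8 for daidzein+PT over PBS ran from -0.82 (Ly6a) to 0.13 (Col1a1), with 7 below 0. In these bulk samples, fewer cells of a type and less RNA per cell cannot be told apart.

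**Figure D1:**
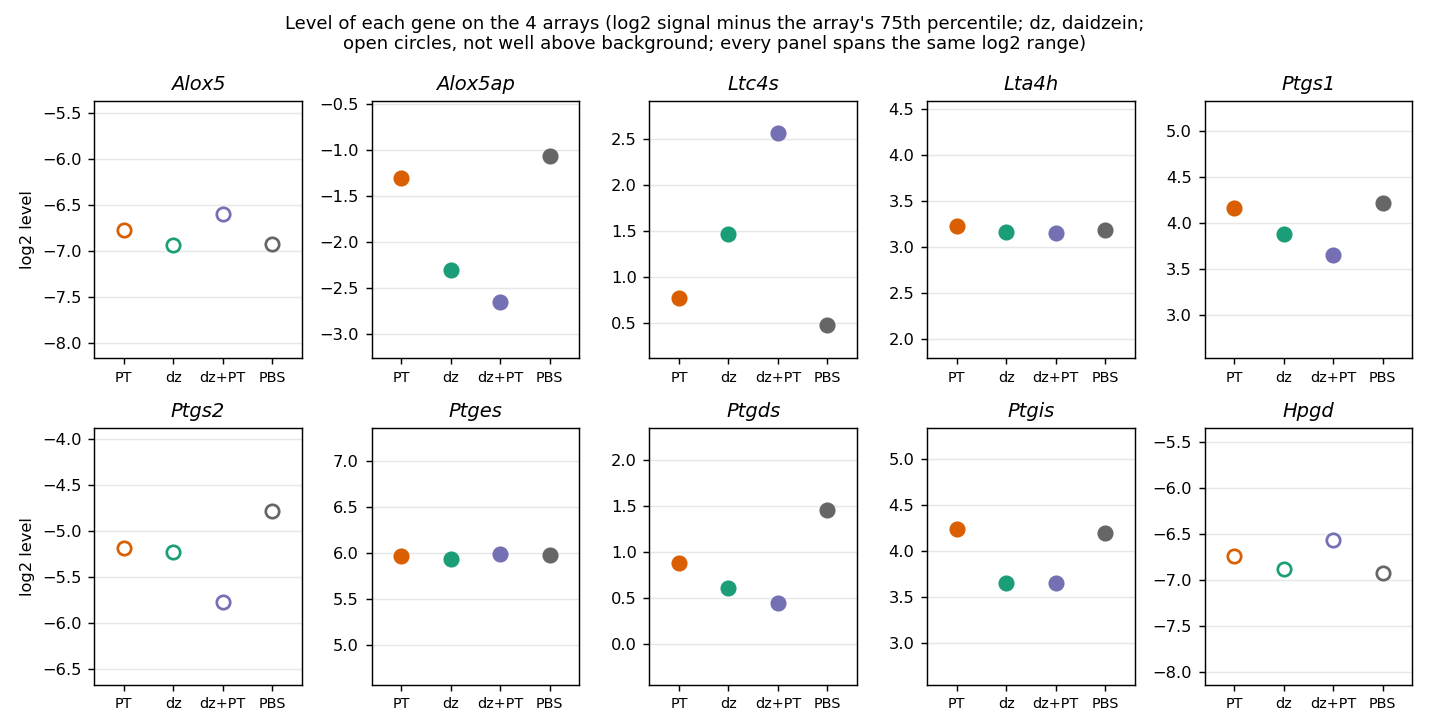
Log2 level of the 10 genes on the PT, daidzein (dz), daidzein+PT and PBS arrays, each point 1 array and each panel spanning the same log2 range. Ltc4s was highest and Alox5ap and Ptgds were lowest on the daidzein+PT array, Lta4h and Ptges were nearly level, and the open points of Alox5, Ptgs2 and Hpgd were not well above background.

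In the leukotriene branch, the 2 small membrane proteins around 5-lipoxygenase differed from PBS in opposite directions on the arrays with daidzein. Ltc4s, the synthase of leukotriene C4, had a relative level of 1.71 with PT, 2.76 with daidzein, 5.91 with daidzein+PT and 1.39 with PBS. It was thus highest with both agents, and each treated array stood above the control. The log2 difference from PBS was 0.30 for PT, 0.99 for daidzein and 2.09 for daidzein+PT (SD of a difference 0.14), or 1.23-fold, 1.99-fold and 4.26-fold. Daidzein+PT lay 1.10 above daidzein and 1.79 above PT on the log2 scale. Without daidzein the PT difference was thus 0.30 and with daidzein it was 1.10. This interaction of 0.80 compares with an SD of 0.20 over the 6116 genes of middle signal, of which 9 (Ltc4s included) had one at least as high. It sets 2 inner slide columns against 2 outer ones, from which it cannot be told apart. Ltc4s ranked 134th from the top of 18556 genes for daidzein+PT over PBS.

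Alox5ap, the FLAP protein that presents arachidonic acid to 5-lipoxygenase, went the other way. Its relative level was 0.405 with PT, 0.203 with daidzein, 0.158 with daidzein+PT and 0.477 with PBS. Both arrays with daidzein lay below both arrays without it. From PBS the log2 difference was -0.24 for PT, -1.24 for daidzein and -1.59 for daidzein+PT (SD of a difference 0.33), the last a 3.01-fold lower level. The value for PT alone lay within that SD. Daidzein+PT was 1.28-fold below daidzein, a log2 difference of -0.36, and 2.56-fold below PT, a log2 difference of -1.36. For daidzein+PT over PBS, Alox5ap was the 5th lowest of 18556 genes. With normexp background correction and an offset of 50, these values were -0.83 for daidzein and -0.99 for daidzein+PT over PBS and -0.78 for daidzein+PT over PT, short of 2-fold in each. With this correction 37 genes were at least 2-fold lower for daidzein+PT over PBS, so Alox5ap no longer ranked 5th. The offset is added to every signal, which draws folds of dim probes toward 0. The processed signal of Alox5ap was 169 with PT, 82.3 with daidzein, 57.0 with daidzein+PT and 178 with PBS. The part of the offset in these values was not tested.

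Because Alox5ap is known as a leukocyte gene, the marker lists of leukocytes were read beside it. Of 9 macrophage markers, 4 were well above background with PT, 5 with daidzein, 5 with daidzein+PT and 6 with PBS. Cd68, Csf1r, Itgam and Cd14 were so on every array, and Ptprc, Adgre1 and Fcgr1 on none. The summed relative level of the list was 30.7, 29.5, 30.6 and 31.8 on the same arrays, most of it from Itgam. Tpsb2 was the 1 mast cell marker of 8 that was well above background on any array. Of 6 neutrophil markers, 4 were well above background with PT, 4 with daidzein, 5 with daidzein+PT and 4 with PBS, with summed relative levels of 109.6, 109.2, 106.1 and 108.4, nearly all of it from Csf3r. Within that list Ly6g, a surface protein of neutrophils, had relative levels of 0.650 with PT, 0.367 with daidzein, 0.394 with daidzein+PT and 0.676 with PBS. Its log2 differences from PBS were -0.06, -0.88 and -0.78, in the same direction as those of Alox5ap. Ly6a, from the preadipocyte and fibroblast list, gave -0.09, -0.79 and -0.82, so this profile was not particular to the neutrophil list. In the neutrophil list, Elane gave 0.07, 0.08 and 0.13, and Csf3r 0.01, 0.01 and -0.05. S100a8, a calcium-binding protein, had log2 differences of 0.94 for PT, 1.21 for daidzein and 2.27 for daidzein+PT over PBS, opposite in direction to Alox5ap. The part of these markers in the Alox5ap result was not tested.

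Of the enzymes on either side of these proteins, Lta4h gave no such difference and Alox5 could not be read. Alox5 itself, the 5-lipoxygenase, was not well above background on any array, with processed signals from 3.05 to 3.83 that the scanner software had replaced by its surrogate floor, so no fold is given. Lta4h, the hydrolase that makes leukotriene B4, had relative levels of 9.38 with PT, 8.94 with daidzein, 8.86 with daidzein+PT and 9.07 with PBS. Its 5 differences lay between -0.08 and 0.05, within the SD of 0.11.

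**Figure D2:**
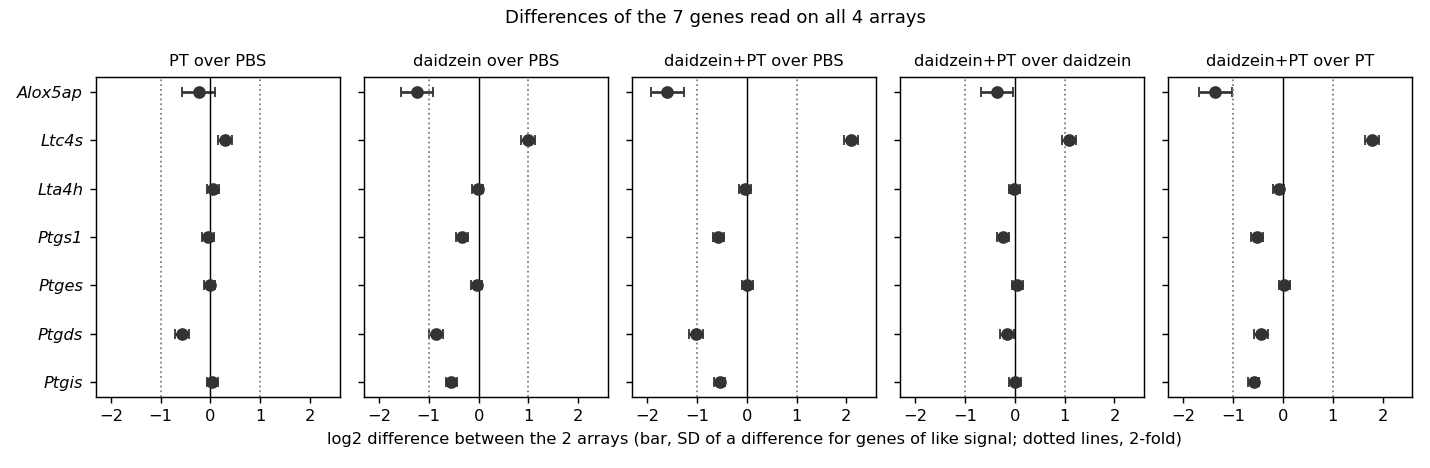
Log2 differences of the 7 genes read on all 4 arrays in the 5 comparisons, with bars for the SD of a difference among genes of like signal and dotted lines at 2-fold. Ltc4s lay at 2.09 and Alox5ap at -1.59 for daidzein+PT over PBS, while Lta4h and Ptges stayed within their bars in every panel.

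Among the cyclooxygenases, Ptgs1, the enzyme known as constitutive, was read clearly and Ptgs2, the inducible one, was not. Ptgs1 had a relative level of 17.9 with PT, 14.8 with daidzein, 12.5 with daidzein+PT and 18.6 with PBS. It was lowest with both agents, and PT alone was close to the control. The log2 differences from PBS were -0.05, -0.33 and -0.57 (SD of a difference 0.11), and daidzein+PT was 0.24 below daidzein and 0.52 below PT in log2 terms.

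Ptgs2 is printed on the array as 10 replicate spots of 1 probe, which show how dim it was. Over the spots that were not flagged as outliers, the processed signal ran from 4.95 to 25.2 with PT (median 13.0, 9 spots), from 6.11 to 20.8 with daidzein (median 11.1, 10 spots), from 3.97 to 13.1 with daidzein+PT (median 6.98, 9 spots) and from 11.4 to 18.5 with PBS (median 13.4, 9 spots). The ranges of all 4 arrays overlapped, although daidzein+PT met the PBS range only through its highest spot. Its next highest spot, at 8.42, lay below the lowest PBS spot of 11.4. Spots well above background numbered 1 with PT, 2 with daidzein, 0 with daidzein+PT and 2 with PBS, and the dimmest spot called well above background on these arrays had a signal of 17.9, 15.8, 17.7 and 14.3. A Ptgs2 difference was therefore not measurable on these arrays, and no fold is given.

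**Figure D3:**
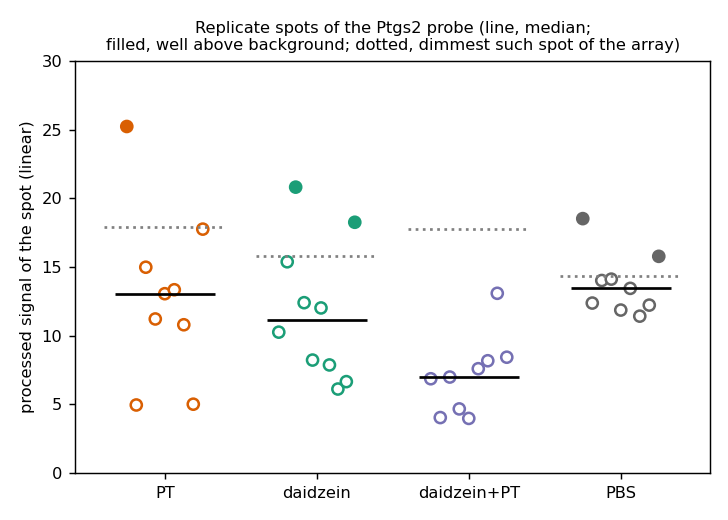
Processed signal of the replicate spots of the Ptgs2 probe on each array, with the median as a line, filled points well above background and a dotted line at the dimmest spot called so. Most points lie below that line on every array, and the daidzein+PT spots, with a median of 6.98, all do.

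On the probe of highest mean level for each gene, the 3 terminal prostanoid synthases gave 3 different patterns. Ptges, the microsomal prostaglandin E synthase, had relative levels of 62.5 with PT, 61.4 with daidzein, 63.7 with daidzein+PT and 63.2 with PBS. These differences of -0.04 to 0.05 lay within the SD of 0.11. A second Ptges probe 3.16 kb away gave -0.20 for PT, 0.03 for daidzein and -0.02 for daidzein+PT over PBS. It gave 0.17 for daidzein+PT over PT. On this probe the values of -0.20 and 0.17 lay beyond the SD of 0.11 for bright genes.

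Ptgds, the lipocalin-type prostaglandin D synthase, was lower on every treated array. It had a relative level of 1.84 with PT, 1.52 with daidzein, 1.36 with daidzein+PT and 2.75 with PBS. The PBS array stood apart and the treated arrays were closer to each other. From PBS the log2 differences were -0.58, -0.86 and -1.01 (SD of a difference 0.14), the last 2.02-fold lower and within that SD of the 2-fold threshold. Among the 7 genes read on all arrays Ptgds had the lowest difference for PT alone, 127th from the bottom of 18903 genes. For daidzein+PT over daidzein the value was -0.16, so the interaction was 0.42, beside an SD of 0.20 for genes of middle signal. Of these 6116 genes, 105 (Ptgds included) had one at least as high. For Ptgds, as for every gene, the interaction cannot be told apart from inner against outer slide columns.

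Ptgis, the cytochrome P450 that makes prostacyclin, had relative levels of 18.9 with PT, 12.6 with daidzein, 12.6 with daidzein+PT and 18.4 with PBS. On this probe the arrays split by daidzein, with 0.04 for PT, -0.55 for daidzein and -0.54 for daidzein+PT over PBS (SD of a difference 0.11). With PT added to daidzein the difference was 0.00. A second Ptgis probe, 11.3 kb away and with relative levels of 0.082, 0.066, 0.079 and 0.101 on the same arrays, gave -0.31, -0.63 and -0.36 over PBS, where the SD of a difference for dim genes is 0.33. It did not show the same split, with -0.06 for daidzein+PT over PT against -0.58 on the first probe. Its interaction was 0.57 against -0.04, where the SD of the interaction for dim genes is 0.46. The processed signals of this second probe were dim, between 26.7 and 37.8. Both probes placed the daidzein array below PBS. Hpgd, the prostaglandin dehydrogenase, was not well above background on any array with either of its 2 probes, whose signals lay between 2.96 and 3.92.

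**Figure D4:**
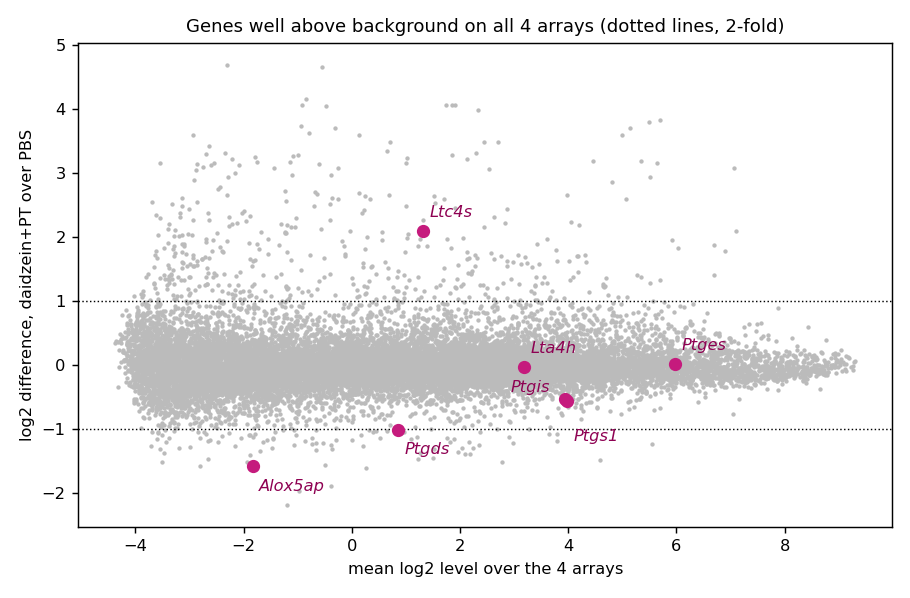
Log2 difference of daidzein+PT over PBS against the mean log2 level, for the 18349 genes read on all 4 arrays (grey), with 7 genes of the pathway in colour and dotted lines at 2-fold. Alox5ap lies at the lower edge of the cloud, Ltc4s above it, Ptgds at the lower dotted line and Ptges and Lta4h near 0.

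Counted against all genes, 0 of the 7 genes read on all 4 arrays were at least 2-fold higher for PT over PBS, where 0.873% of all genes were, and 0 were at least 2-fold lower, against 0.0635%. For daidzein over PBS 0 were at least 2-fold higher, against 1.1% of all genes, and Alox5ap was at least 2-fold lower, against 0.368%. For daidzein+PT over PBS, Ltc4s was at least 2-fold higher, against 2.52% of all genes, and Alox5ap and Ptgds were at least 2-fold lower, against 0.555%. With PT added to daidzein, Ltc4s was at least 2-fold higher, against 1.07% of all genes, and 0 were at least 2-fold lower, against 0.107%. With daidzein added to PT, Ltc4s was at least 2-fold higher, against 2.1%, and Alox5ap at least 2-fold lower, against 0.86%. The median of the 7 was -0.02 for PT, -0.33 for daidzein and -0.54 for daidzein+PT over PBS, beside -0.02, -0.03 and -0.03 for all genes. These comparisons share the PBS array. A level that was lower in the order PBS, PT, daidzein, daidzein+PT was seen for 3 of the 7 (Alox5ap, Ptgs1 and Ptgds), against 11.2% of all genes, and the opposite order for Ltc4s, against 9.86%.

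Ltc4s, Alox5ap and Ptges belong to the MAPEG family of small membrane proteins that bind lipid substrates or glutathione. The family's other genes were set beside them after their values were seen. The microsomal glutathione transferase Mgst3 had relative levels of 11.5 with PT, 20.9 with daidzein, 29.9 with daidzein+PT and 9.67 with PBS, or log2 differences of 0.26, 1.11 and 1.63 from PBS. Mgst2, which can also make leukotriene C4, had 2.58, 3.34, 5.52 and 2.20 on these arrays, or 0.23, 0.60 and 1.32. Mgst1 gave smaller differences of 0.05, 0.26 and 0.46. All 3 were highest with both agents, as Ltc4s was, while Alox5ap was lowest there and Ptges level.

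Upstream of the pathway, 11 of 22 genes of arachidonic acid release were read on all 4 arrays. Mgll, a monoglyceride lipase known in brain to supply arachidonic acid, was the 1 gene of the list at 2-fold in any comparison, with log2 differences of 1.21 for PT, 2.93 for daidzein and 4.16 for daidzein+PT over PBS. The cytosolic phospholipase Pla2g4a, the usual source of arachidonic acid for both branches, gave 0.09, -0.24 and -0.25, and the arachidonate-activating ligase Acsl4 0.06, -0.14 and -0.05. The list's median for daidzein+PT over PBS was 0.15. Of 9 other prostanoid synthases, 6 were read and none reached 2-fold. Their medians were -0.05 for PT, 0.18 for daidzein and 0.41 for daidzein+PT over PBS. Ptges2, a second prostaglandin E synthase, lay at -0.03, 0.20 and 0.56, the prostaglandin F synthase Akr1b3 at -0.05, -0.03 and 0.05, and the leukocyte enzyme Hpgds was not well above background on any array.

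Downstream, a few receptors of prostanoids were read on every array, and no receptor of leukotrienes was. Of 17 receptor genes found on the array, 7 were read on all 4 arrays, and Ltb4r1, Ltb4r2, Cysltr1, Cysltr2 and Gpr17 were well above background on none. Oxgr1, a proposed receptor of leukotriene E4, was well above background on the daidzein+PT array alone, with a relative level of 0.0999. Pparg, a nuclear receptor for which prostaglandin metabolites are candidate ligands, had log2 differences of 0.40 for PT, 1.03 for daidzein and 1.80 for daidzein+PT over PBS. Ptger4, a prostaglandin E2 receptor, gave -0.52, 0.12 and 0.68, and 1.21 for daidzein+PT over PT, with relative levels of 0.079 with PT, 0.123 with daidzein, 0.183 with daidzein+PT and 0.114 with PBS. Ptgfr, the receptor of prostaglandin F2alpha, gave -0.01, -0.37 and -0.46. Among genes of inactivation and transport, 6 of 8 were read on all 4 arrays and none reached 2-fold, with Zadh2, a prostaglandin reductase, at -0.10, 0.26 and 0.19. Of 13 other lipoxygenases and leukotriene-processing genes, 7 were read on all 4 arrays. Mgst2 and Mgst3 were the 2 at 2-fold or more, and Cotl1, which binds 5-lipoxygenase, lay at -0.18, -0.44 and -0.35.

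Ltc4s had the widest range over the arrays of the 7 genes read on all of them, 4.26-fold. The 3 genes whose centred log2 levels on the 4 arrays lay closest to it were Itpka (Euclidean distance 0.14), the alanine aminotransferase Gpt (0.15) and the transglutaminase Tgm2 (0.15). Their log2 differences for daidzein+PT over PBS were 2.16, 2.27 and 2.07. With 4 arrays this likeness is a description only. The adipocyte markers, whose part in these differences was not tested, had the same order of arrays as Ltc4s in their summed level.

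**Figure D5:**
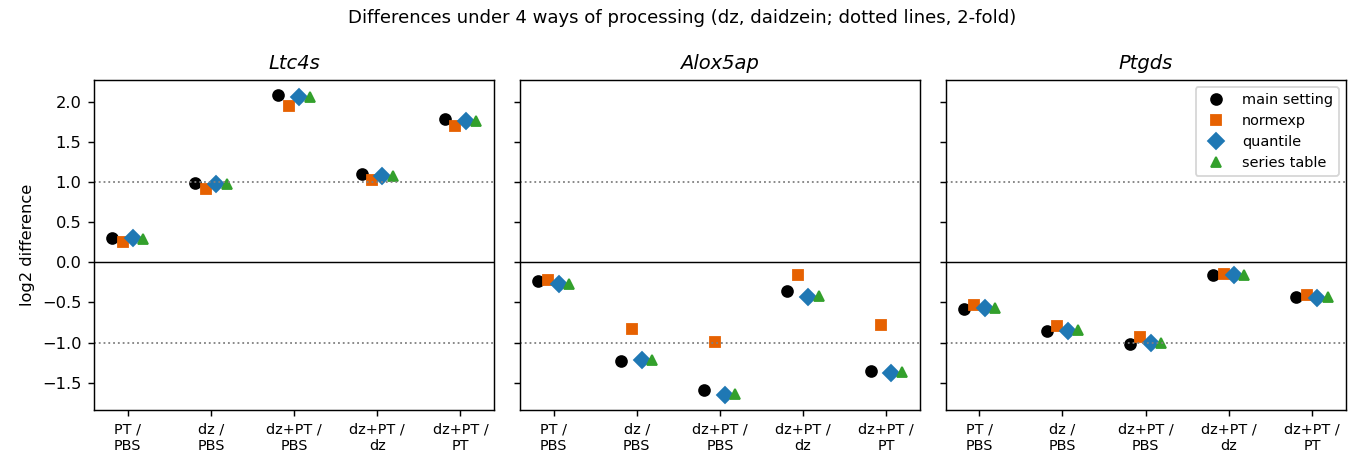
Log2 differences of Ltc4s, Alox5ap and Ptgds in the 5 comparisons under the main setting, normexp background correction, quantile normalization and the authors' deposited series table (dz, daidzein; dotted lines, 2-fold). The Ltc4s points lie close together, from 1.95 to 2.09 for daidzein+PT over PBS, while the Alox5ap points with normexp lie nearer 0 than the others.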

How the data were processed

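Total RNA was labelled with Cy3 and read on Agilent mouse arrays, 1 per group, per the labels. The deposited scanner files hold a linear spot intensity that Agilent Feature Extraction had background-subtracted and detrended within each array, with the raw mean intensity and the local background, per the file headers. The headers give version 10.7.1.1 and the submitters' processing notes 9.5.1.1. The authors' deposited series table, used as an alternative, holds intensities on a linear scale with a median of 18.3 on each array. It was read as quantile normalized from its values, and the step itself is not stated.

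Control and outlier spots (106 to 173 per array) were left out. From each log2 signal the log2 of its array's 75th percentile (360 to 418) was subtracted. Replicate spots were averaged, and of several probes the one of highest mean level stood for the gene. A probe was well above background when over 50% of its spots were. Of the probes, 27235 had an accession in a RefSeq name table and 2838 were renamed from it; the 10 genes kept the files' names. A gene entered a comparison when well above background on both arrays. Replicate spots well above background had a median SD of 0.05 to 0.06 on the log2 scale. No test was made, since each group is 1 array, and the number of arrays limits the precision.

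The members, lists and rules were chosen with earlier results of these data known. Named are the 10 genes with every probe read, genes of 5 pathway lists at 2-fold in any comparison with each list's gene of highest signal, and the 3 genes closest to the member of widest range. Pla2g4a, Ptges2, Hpgds, Ptgfr, the leukotriene receptors and the Mgst family were named after their values were seen. Genes of the cell type marker lists were named where their level bore on a member, so their values were also seen first. The procedure was tested on simulated data. Alternatives were normexp (limma 3.58.1, offset 50), quantile normalization, the series table, the mean over probes and no filter on dim probes. Python 3.11.15 and numpy 2.4.6 were used.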

Additional observations from a re-analysis of the deposited data

How the results depend on the processing

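No paired analysis was possible because each group is 1 array and no difference comes from a test. Of 210 values of single genes under the 5 alternatives, 72 could not differ from the main value (all with no filter, and genes of 1 probe under the mean over probes). Of the other 138, 129 stayed within the SD of a difference of the main value and 9 moved further, and 0 values at 2-fold or more changed sign. Normexp moved 3 values of Alox5ap (given above), and with it Ptgds was at -0.93 for daidzein+PT over PBS. No gene of the 10 was then at least 2-fold lower: 0 for daidzein over PBS, 0 for daidzein+PT over PBS and 0 for daidzein+PT over PT. Ptgis with the mean over its probes was at -0.13 for PT over PBS (0.04 in the main setting), 0.13 for daidzein+PT over daidzein (0.00), -0.32 for daidzein+PT over PT (-0.58) and 0.27 for the interaction (-0.04). The median interaction of the 7 genes was then 0.11, against -0.04. With no filter, all 10 genes entered and the medians were -0.19 for daidzein over PBS, -0.29 for daidzein+PT over PBS and -0.26 for daidzein+PT over PT. The median of all genes for daidzein+PT over PBS was then 0.10, against -0.03. The interaction of Ptges was 0.07, and -0.05 under quantile normalization and in the series table.

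Over all genes, the main counts at 2-fold higher and lower were 165 and 12 for PT over PBS, 209 and 70 for daidzein over PBS, 468 and 103 for daidzein+PT over PBS, 200 and 20 for daidzein+PT over daidzein and 390 and 160 for daidzein+PT over PT. With normexp they were 42 and 1, 116 and 16, 285 and 37, 61 and 2, and 228 and 42. With no filter on dim probes they were 2209 and 889, 1809 and 1155, 2682 and 1053, 2080 and 1110, and 2054 and 1794. PT over PBS had 29 lower under quantile normalization and 29 in the series table. The cause of these shifts was not tested. Alox5, Ptgs2 and Hpgd lay too close to background for any difference to be read.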
